A study of Mus musculus with 9 samples.

Results

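Bmp2, Bmp4, Bmp5, Bmp6 and Bmp7 encode bone morphogenetic proteins (BMPs), secreted growth factors of the TGF-β family. The genes were taken by symbol from all 9 deposited count matrices, in which they are 5 of 32289 features. Each library counts the 3′ ends of transcripts, by unique molecular identifiers (UMIs), in single cells dissociated from a pair of mouse forelimb buds at E10.75 (embryonic day), with 37 to 39 somites. There were 3 libraries of wild-type (Wt) embryos, 3 of embryos homozygous for the EC1CRM8Δ allele (E1C8Δ/Δ) and 3 of embryos homozygous for the EC1CRM5Δ allele (E1C5Δ/Δ). Both alleles lack limb bud enhancers of Grem1, the gene of a secreted BMP antagonist. The enhancer cluster EC1 is deleted in both alleles, together with the conserved element CRM8 in E1C8Δ/Δ and with the enhancer CRM5 in E1C5Δ/Δ. The deletions are germline alleles present in every cell of an embryo, all strains were kept on a Swiss Albino background, and embryos of either sex were used.

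BMP precursors are cleaved by proprotein convertases and bind complexes of type I and type II receptors, which phosphorylate SMAD1, SMAD5 and SMAD9. With SMAD4 these enter the nucleus and raise targets such as the Id and Msx genes. In the limb bud, BMPs come from the mesenchyme and from the apical ectodermal ridge, the strip of thickened ectoderm at the distal rim that secretes FGFs, and GREM1 made by the posterior-distal mesenchyme restrains them so that the ridge persists. Later in limb development BMPs act in digit patterning, in cartilage formation and in the removal of tissue between the digits.

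On the mm10 assembly with GENCODE M21 gene models, Bmp2 spans chr2:133552159-133562885 on the plus strand and Bmp7 chr2:172868012-172940321 on the minus strand, on the chromosome that also carries Grem1 (chr2:113746164-113758646, minus strand). Bmp5 spans chr9:75775364-75900310 and Bmp6 chr13:38345107-38500302, both on the plus strand. Bmp4, the shortest of the 5 loci, spans chr14:46383520-46390669 on the minus strand.

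After filters on cells and removal of called doublets, 44654 cells remained, between 592 and 8699 per library. Cells were assigned to lineages by how many markers of a fixed list they showed, which gave 35663 mesenchymal, 562 ectodermal, 2065 muscle progenitor, 620 endothelial and 2177 erythroid cells. Ectoderm with at least 2 UMIs of Fgf8, the FGF gene of the apical ridge, was taken as ridge (68 cells), and ectoderm without Fgf8 as non-ridge ectoderm (472 cells). The forelimb marker Tbx5 was at 121 CPM in Wt mesenchyme and at 2.15 to 10.9 CPM in the other types named here. Tbx5 is among the markers that gated mesenchyme in and the other types out, so that these values are no independent check. The further ridge genes Fgf4 and Sp8, not used in the gates, were at 57.2 and 209 CPM in the Wt ridge. In non-ridge ectoderm they were at 0 and 59.8 CPM. Barcodes shared between any 2 libraries made up at most 0.497% of the smaller one. Mesenchymal UMIs per library ranged from 16290524 to 249894945. The level of a gene is given here as CPM, its UMIs per 1000000 UMIs of all cells of a group in a library. A 3′ library counts a transcript once whatever its length, so that levels of different ligands are set side by side without division by length, although priming may differ between genes.

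Grem1 checked the labels of mutant against Wt libraries, and not which mutant is which. In Wt mesenchyme its level was 43.8, 28.9 and 33.6 CPM in replicates 1 to 3, against 11.7, 11.2 and 14.0 CPM in E1C8Δ/Δ and 17.5, 15.8 and 24.8 CPM in E1C5Δ/Δ. All 6 mutant libraries lay below all 3 Wt libraries, as for 3.18% of genes, with a log2 fold change of −1.54 (SE 0.17, adjusted p = 0.0017) in E1C8Δ/Δ and −0.82 (SE 0.17, adjusted p = 0.038) in E1C5Δ/Δ by edgeR's quasi-likelihood test on UMIs summed per library, with Benjamini-Hochberg adjustment over all genes tested. Xist, the RNA that coats the inactive X chromosome of female cells, was over 100 CPM in 2 of the 3 libraries of each mutant and in none of the Wt libraries, so that sex and genotype are partly confounded. With sex as a covariate, the Grem1 change in both mutants pooled was −1.16 on the log2 scale (adjusted p = 0.091), against −1.18 (SE 0.14, adjusted p = 0.0032) without it. It was −1.52 (adjusted p = 0.018) in E1C8Δ/Δ and −0.80 (adjusted p = 0.27) in E1C5Δ/Δ with this covariate. The call in E1C5Δ/Δ was also lost when any of 6 of the 9 libraries was left out (Wt replicates 1 and 3, E1C8Δ/Δ replicates 1 and 2, and E1C5Δ/Δ replicates 1 and 2). Between the mutants, Grem1 RNA was lower in E1C8Δ/Δ than in E1C5Δ/Δ mesenchyme (log2 difference −0.72, SE 0.17, adjusted p = 0.026 by the same test). In the zones of mesenchyme defined below, the mutants were not distinguished distally (−0.18, SE 0.16, adjusted p = 0.53). The difference was −1.14 posteriorly (adjusted p = 0.00655), −0.97 proximally (adjusted p = 0.044) and −0.89 anteriorly (adjusted p = 0.066). Alternative fits of this contrast are not given here. The paper, in contrast, reports that more GREM1 protein was left in E1C8Δ/Δ than in E1C5Δ/Δ forelimb buds. The reason for this difference was not tested.

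Bmp4 was by far the most abundant of the 5 ligands in mesenchyme, followed by Bmp7. Over the 9 libraries, the mesenchymal level of Bmp4 was 74.1 ± 8.13 CPM (mean ± SD, 84986 UMIs in all) and that of Bmp7 was 23.6 ± 3.39 CPM (26898 UMIs). Bmp2 and Bmp5 were an order of magnitude rarer, at 3.94 ± 1.85 CPM (4159 UMIs) and 2.97 ± 0.68 CPM (3487 UMIs), and their ranges over libraries overlapped. Bmp6 was near the limit of detection at 0.204 ± 0.124 CPM, with 206 UMIs in all 9 libraries. In Wt mesenchyme, Bmp4 made up 71.6% ± 2.15 (SD, n = 3) of the summed level of the 5 ligands, Bmp7 21.2% ± 1.17, Bmp2 4.59% ± 1.63, Bmp5 2.43% ± 0.62 and Bmp6 0.174% ± 0.10.

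The ligands of a forelimb bud were counted mostly in mesenchyme, the bulk of the tissue. Between 84.3% and 94.9% of a library's Bmp4 UMIs fell in mesenchymal cells, and between 81.6% and 91.2% of its Bmp7 UMIs, while mesenchyme held 69.4% to 83.0% of all UMIs. For Bmp2 the mesenchymal share ranged from 74.1% to 89.9%, and for Bmp5 from 78.3% to 92.9%. Muscle progenitors, the Pax3+ cells that migrate into the bud from the somites, held 3.61% to 13.1% of the Bmp5 UMIs (median 6.31%) and 4.0% to 7.34% of all UMIs (median 4.99%). Ectoderm held 1.69% to 5.16% of the Bmp7 UMIs (median 2.87%) at 0.578% to 1.61% of all UMIs (median 1.03%).

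The question of which cell type carries which ligand was addressed by summing UMIs per library and cell type, in libraries with at least 20 cells of the type, and fitting all types together with library as a block (13856 genes). The cell types differed widely in general: 52.3% of genes were called (adjusted p under 0.05) between non-ridge ectoderm and mesenchyme, 41% between muscle progenitors and mesenchyme, 70.3% between endothelium and mesenchyme and 77.5% between erythroid cells and mesenchyme. Against these backgrounds, 2 of the 4 ligands tested differed from mesenchyme in non-ridge ectoderm, 3 of 4 in muscle progenitors, 3 of 4 in endothelium and 3 of 4 in erythroid cells. These counts include Bmp2 in muscle progenitors and Bmp5 in endothelium and erythroid cells. In those types they were too rare to pass the filter on low counts and entered only through other types. Their differences are therefore a description, with no test. Bmp6 had too few counts to enter these fits, with 1 UMI in muscle progenitors and 2 UMIs in endothelium.

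Non-ridge ectoderm was the only one of these cell types in which Bmp7 exceeded Bmp4. Its Bmp7 level ranged from 34.8 to 50.1 CPM (median 43.9, 6 libraries), above the mesenchymal level in 6 of 6 libraries, with a log2 difference of 0.96 (SE 0.14, adjusted p = 3.2e-07). Bmp4 ranged from 15.5 to 23.9 CPM (median 17.3) there, below mesenchyme in 6 of 6 libraries, by −2.02 on the log2 scale (SE 0.15, adjusted p = 3.6e-15). In the 2 Wt libraries with enough of these cells, Bmp7 made up 67.4% ± 4.49 of the summed ligand level and Bmp4 24.3% ± 2.15. Bmp6 ranged from 0.783 to 2.25 CPM (16 UMIs in all), against 0.080 to 0.297 CPM in the mesenchyme of the same 6 libraries. It was higher in 6 of 6 with no overlap, and was not tested. Shares of all genes without overlap were not counted between groups of cells, here or below, so that such statements have no background.

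Neither Bmp2 nor Bmp5 passed the test between non-ridge ectoderm and mesenchyme. Bmp2 ranged from 1.90 to 16.8 CPM in non-ridge ectoderm (median 3.50), and the highest value came from E1C5Δ/Δ replicate 3 alone, with 43 of the 75 UMIs. The log2 difference from mesenchyme was 0.59 (95% interval −0.09 to 1.27, adjusted p = 0.16), and −0.27 without that library. Without Wt replicate 1 it was 0.83 (adjusted p = 0.046). Bmp5 ranged from 0.450 to 3.80 CPM (median 2.17), with a log2 difference of −0.54 (95% interval −1.10 to 0.02, adjusted p = 0.11), which became −0.80 with a call when E1C5Δ/Δ replicate 1 was left out.

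Muscle progenitors differed most from mesenchyme in Bmp2. Their Bmp2 level was at most 0.636 CPM in any of 9 libraries (median 0.253, 28 UMIs in all), below mesenchyme in 9 of 9 libraries. Its fitted log2 difference from mesenchyme, −3.39, is a description with no test, since Bmp2 could pass the filter only through other types. Bmp4 in muscle progenitors ranged from 7.97 to 22.5 CPM (median 12.3) and Bmp7 from 3.79 to 8.67 CPM (median 6.14), all below the lowest mesenchymal values, with log2 differences of −2.46 (SE 0.11, adjusted p = 1.5e-22) and −1.87 (SE 0.13, adjusted p = 9.0e-16). Bmp5 stood out by not being lower: it ranged from 2.06 to 4.51 CPM (median 2.98), with a log2 difference of 0.24 (95% interval −0.05 to 0.54, adjusted p = 0.21). Bmp5 thereby made up 13.7% ± 3.03 of the summed ligand level of Wt muscle progenitors, beside Bmp4 at 50.4% ± 3.72 and Bmp7 at 34.9% ± 1.41.

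Endothelium, the lining of the bud's blood vessels, carried Bmp4 and Bmp2 but little Bmp5 and Bmp7. Its Bmp4 level ranged from 7.08 to 21.5 CPM (median 16.9, 7 libraries), with a log2 difference from mesenchyme of −2.03 (SE 0.13, adjusted p = 1.0e-17). Bmp2 ranged from 1.33 to 5.31 CPM (median 2.39) and was not distinguished from mesenchyme (log2 difference −0.27, 95% interval −0.91 to 0.37, adjusted p = 0.47). Bmp5 was counted in 10 UMIs and Bmp7 in 48 UMIs over 7 libraries. For Bmp7 the log2 difference was −3.63 (SE 0.23, adjusted p = 3.5e-18). Bmp5 was below mesenchyme in 7 of 7 libraries. Its fitted log2 difference, −2.94, is a description with no test, since Bmp5 could pass the filter only through other types. The middle of this list, compared as neighbours in the order of levels, separated as follows. Endothelial Bmp4 was not distinguished from that of non-ridge ectoderm (log2 difference −0.01, 95% interval −0.36 to 0.35, adjusted p = 0.99, where 62.5% of genes were called), and it was above that of muscle progenitors (0.43, SE 0.15, adjusted p = 0.0090, where 68.1% were called).

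**Figure D1:**
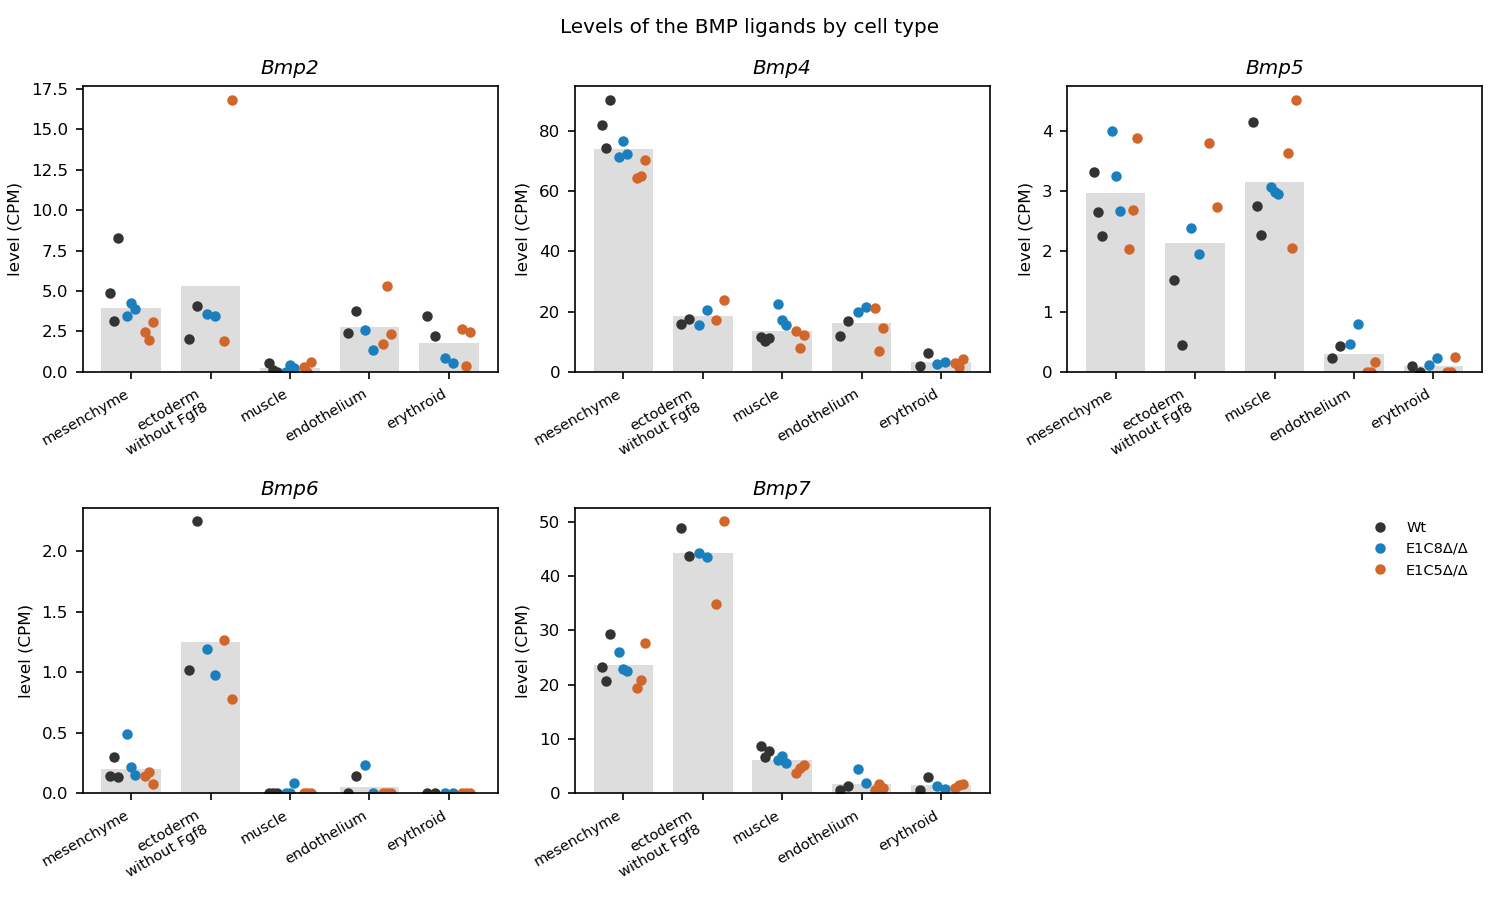
Level of each ligand (CPM, vertical axis) by cell type (horizontal axis), with 1 dot per library coloured by genotype and bars at the mean over libraries. Bmp4 and Bmp2 span mesenchyme and other types at different heights, Bmp7 in ectoderm without Fgf8 (34.8 to 50.1 CPM) lies above mesenchyme, and Bmp5 in muscle progenitors (2.06 to 4.51 CPM) overlaps mesenchyme.

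Droplets carry some free RNA of other cells, and erythroid cells, the red blood cell precursors, were set beside the other types for this reason. Erythroid cells showed Bmp4 at 1.57 to 6.33 CPM (median 3.07, 7 libraries), Bmp7 at 0.549 to 3.06 CPM, Bmp2 at 0.393 to 3.45 CPM, 8 UMIs of Bmp5 and none of Bmp6. The summed level of the 5 mesenchymal markers Prrx1, Prrx2, Pdgfra, Tbx5 and Twist1 reached 1.65% to 6.61% of its mesenchymal value in endothelium, 1.79% to 5.58% in erythroid cells, 4.39% to 9.33% in non-ridge ectoderm and 9.13% to 16.2% in muscle progenitors. Bmp4 reached 10.9% to 32.7% of its mesenchymal level in endothelium and 12.2% to 31.6% in muscle progenitors, Bmp5 reached 76.5% to 178% in muscle progenitors, and Bmp2 only 0% to 20.7% in muscle progenitors, above the markers in 3 of 9 libraries. Bmp2 reached 34.1% to 270% of its mesenchymal level in endothelium and 13.7% to 107% in erythroid cells, above the markers in 7 of 7 libraries of each type. In erythroid cells Bmp4 reached 2.28% to 8.52% of its mesenchymal level, above the markers in 5 of 7 libraries, and Bmp7 2.35% to 14.8%, in 6 of 7. Cells of the other types had to lie under 30% of their library's mesenchymal median of these markers. The gate thus capped the marker values and not those of the ligands, so that standing above the markers is only a description. The part of carried-over RNA in these levels was not tested further. The erythroid Bmp2 difference from mesenchyme depended on the scaling, at 0.58 with trimmed-mean scaling (adjusted p = 0.068) and −0.93 with library totals (adjusted p = 0.0044), since the median of all genes moved by 1.46 between the scalings for this pair, by 0.14 for endothelium and by less than 0.1 for the other types against mesenchyme named here.

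The apical ridge carried the highest levels of 4 of the 5 ligands among the ectodermal cells. Summed over all 9 libraries, the 68 ridge cells held 622 UMIs of Bmp4, or 346 CPM (exact Poisson 95% interval 319 to 374), against 18.3 CPM (16.1 to 20.7) in non-ridge ectoderm. Bmp2 was at 42.3 CPM (33.3 to 52.9, 76 UMIs) against 5.65 CPM (4.46 to 7.05, and 3.11 CPM without E1C5Δ/Δ replicate 3, which held 43 of the 78 UMIs), Bmp7 at 87.9 CPM (74.7 to 103) against 45.1 CPM (41.6 to 48.8), and Bmp5 at 16.7 CPM (11.3 to 23.8) against 1.95 CPM (1.29 to 2.84). Bmp6 had no UMI in the ridge cells, with an upper limit of 2.05 CPM, which does not separate it from the 1.16 CPM (0.662 to 1.88) of non-ridge ectoderm. These intervals cover counting error only.

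The 5 libraries with at least 5 ridge and 5 non-ridge cells were the 3 of Wt and E1C8Δ/Δ replicates 2 and 3, and no E1C5Δ/Δ library entered. In these, Bmp4 ranged from 292 to 497 CPM in the ridge against 15.5 to 20.6 CPM outside it, and the 2 sets did not overlap for Bmp2, Bmp5 and Bmp7 either. The ridge exceeded non-ridge ectoderm in 5 of 5 libraries for each of these 4 ligands. The fit of these libraries, with library as a block, called 8.85% of 6758 genes. Bmp7 was called in it, with a log2 difference of 0.99 (SE 0.19, adjusted p = 2.1e-04). Bmp4 and Bmp2 could pass the filter on low counts only through the ridge, where they were higher. Their fitted log2 differences, 4.44 for Bmp4 and 3.41 for Bmp2, are therefore given as a description, with no test. Ridge cells held 0.018% to 0.396% of a library's UMIs and 0.881% to 13.9% of its Bmp2 UMIs (median 1.49%). The 5 mesenchymal markers stood at 10.3% to 13.8% of their mesenchymal level in the ridge, and 1 of them, Pdgfra, was at 98.1 CPM in the Wt ridge against 16.9 CPM in Wt non-ridge ectoderm and 132 CPM in mesenchyme. Their part in the ridge levels was not tested.

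Within mesenchyme, position was read from gene lists of the study that contain no BMP ligand. On the anterior-posterior (AP) axis, Alx4, Boc, Pax1 and Sox6 were set against Hand2, Osr1, Shh and Prdm1, and on the proximal-distal (PD) axis, Rarb, Irx3, Meis2 and Pkdcc against Cyp26b1, Sall3, Lmo2 and Wnt5a. Each axis was divided into 3 zones at quantiles of the Wt scores with libraries weighted equally, and cells tied at a cut fell into the zone below it. The same cuts were applied to the mutants. The paper reports lower Wnt5a and Hand2 in a progenitor cluster of both mutants, and reduced Shh, all of them in these lists. A zone may therefore not hold like cells in Wt and mutants, and this was not tested. The zones are unequal in size over all 9 libraries, and on the PD axis their sizes also differed between Wt and mutants, as given below. In all, 33663 cells with at least 10000 UMIs were placed, with 10633 in the anterior, 14510 in the middle and 8520 in the posterior zone, and 13965 in the proximal, 10463 in the middle and 9235 in the distal zone. A zone is a range of a score and not a cell type, and 4051 cells on the AP axis and 3547 on the PD axis lay within 0.1 of a cut.

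Bmp2, Bmp4 and Bmp5 were higher posteriorly, while Bmp7 was higher anteriorly. Bmp4 ranged from 98.0 to 134 CPM in the posterior zone (median 106) and from 57.7 to 76.3 CPM in the anterior zone (median 68.6), so that all posterior values lay above all anterior ones. The log2 difference was 0.77 (SE 0.04, adjusted p = 1.1e-15), higher in 9 of 9 libraries, in a comparison that called 47.4% of 14697 genes and each of Bmp2, Bmp4, Bmp5 and Bmp7. Bmp2 ranged from 3.65 to 11.4 CPM posteriorly (median 4.77) and from 1.05 to 6.91 CPM anteriorly (median 2.60), and the ranges overlapped although every library was higher posteriorly (log2 difference 0.99, SE 0.08, adjusted p = 6.1e-12). For Bmp5 the log2 difference was 0.83 (SE 0.08, adjusted p = 9.3e-10, 9 of 9 libraries), with 4.10 ± 1.28 CPM posteriorly and 2.44 ± 0.74 CPM anteriorly.

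Bmp7 was the only abundant ligand with an anterior bias. It ranged from 16.8 to 28.4 CPM in the posterior zone (median 19.6) and from 23.4 to 32.1 CPM in the anterior zone (median 26.4), lower posteriorly in 9 of 9 libraries with overlapping ranges, and the log2 difference was small, at −0.34 (SE 0.04, adjusted p = 4.8e-09). Bmp6 had 131 UMIs in the anterior and 13 UMIs in the posterior zone, 0 to 3 per library in the latter. On both axes it could pass the filter on low counts only through the zone where it was higher, so that its differences between groups of mesenchymal cells are given as a description, with no test. Its level was lower posteriorly in 8 of 9 libraries, and Wt replicate 3 was the exception, at 0.173 CPM posteriorly and 0.0751 CPM anteriorly. Bmp4 did not change evenly along the axis. Its level in the middle zone was below the anterior one (log2 difference −0.19, SE 0.04, adjusted p = 7.3e-04, where 40.1% of genes were called) and the posterior zone was 0.96 above the middle (SE 0.04, adjusted p = 1.3e-17, where 28.9% were called). Bmp2, in contrast, rose at both steps, by 0.33 (adjusted p = 0.0013, and 0.16 with adjusted p = 0.20 when scores were taken without thinning) and then by 0.66 (adjusted p = 1.3e-08).

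Along the proximal-distal axis Bmp2 had the widest rise of the ligands tested. It ranged from 2.85 to 9.48 CPM in the distal zone (median 6.45) and from 1.33 to 4.45 CPM in the proximal zone (median 1.58), higher distally in 9 of 9 libraries with overlapping ranges, and the log2 difference was 1.62 (SE 0.09, adjusted p = 1.9e-14). This comparison called 68% of 14826 genes and each of Bmp2, Bmp4, Bmp5 and Bmp7. Bmp5 was higher distally by 0.75 (SE 0.10, adjusted p = 1.2e-07), at 4.33 ± 1.05 against 2.69 ± 0.66 CPM, but its level was lowest in the middle zone, below the proximal one by −0.31 on the log2 scale (SE 0.11, adjusted p = 0.017, where 50.4% of genes were called), a call that was lost without Wt replicate 2 (−0.29, adjusted p = 0.057) and with narrower outer zones (−0.11, adjusted p = 0.38). Bmp6 was nearly confined to proximal cells among the mesenchyme, with 177 UMIs in the proximal and 10 UMIs in the distal zone, lower distally in 9 of 9 libraries.

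Bmp4 and Bmp7 differed little between the distal and the proximal zone. For Bmp4 the log2 difference over all 9 libraries was 0.37 (SE 0.08, adjusted p = 1.3e-04), but in the 3 Wt libraries alone it was 0.082 (adjusted p = 0.27), with Wt means of 87.6 ± 8.97 CPM distally and 86.1 ± 16.9 CPM proximally. For Bmp7 the log2 difference was 0.15 (SE 0.05, adjusted p = 0.012, higher distally in 7 of 9 libraries). That call was lost without Wt replicate 2, E1C8Δ/Δ replicate 2 or E1C8Δ/Δ replicate 3, with log2 differences of 0.11 to 0.18 when each library was omitted in turn.

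Crossing both axes placed the Wt maximum of Bmp4 in the posterior-distal cells. The mean Wt level of Bmp4 there was 165 CPM, against 109 CPM in posterior cells of the middle PD zone, 99.4 CPM in posterior-proximal cells and 88.2 CPM in anterior-proximal cells, and its lowest means, 50.2 and 52.1 CPM, were in the anterior and the middle AP zone at middle PD level. Bmp7 in Wt was also highest posterior-distally, at 37.0 CPM, and lowest posterior-proximally, at 14.2 CPM, so that its anterior bias did not extend to the distal cells. Bmp2 was at 9.95 CPM in posterior-distal and at 0.83 CPM in middle-proximal Wt cells. Bmp5 was highest in the posterior-proximal cells, at 5.11 CPM, with 3.54 to 3.87 CPM in the 3 distal fields, while Bmp6 was at 0.668 CPM anterior-proximally and at most 0.0422 CPM distally. These fields are described without a test.

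**Figure D2:**
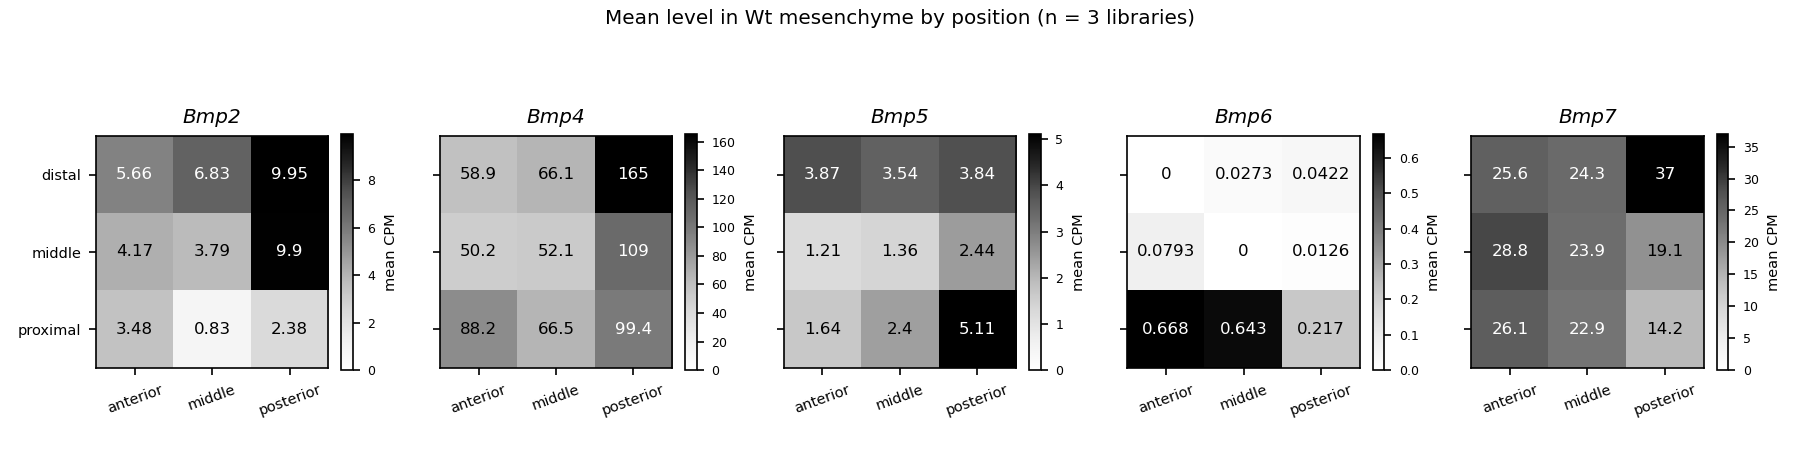
Mean level of each ligand (CPM, colour and printed value) over the 3 Wt libraries in the 9 fields made by AP zones (columns) and PD zones (rows). Bmp4 is highest in the posterior-distal field (165 CPM), Bmp6 is nearly restricted to the proximal row (0.668 CPM at the anterior end), and Bmp7 is lowest in the posterior-proximal field (14.2 CPM).

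Cells with a UMI of Shh, the secreted signal of the polarizing region at the posterior margin, had the highest levels of Bmp4 and Bmp2 among the mesenchymal gates. In 7 libraries with at least 20 of these cells (667 cells in all), Bmp4 ranged from 246 to 423 CPM (median 323), above the 58.2 to 73.8 CPM of the other mesenchyme in every library. Bmp2 ranged from 9.73 to 22.3 CPM against 1.86 to 4.44 CPM, and again no values overlapped. The comparison with other mesenchyme called 26.1% of 14988 genes and all 4 ligands tested, with log2 differences of 2.27 for Bmp4 (SE 0.06, adjusted p = 1.7e-24), 1.92 for Bmp2 (SE 0.12, adjusted p = 5.3e-15), 1.44 for Bmp5 (SE 0.14, adjusted p = 3.3e-10) and 0.75 for Bmp7 (SE 0.07, adjusted p = 4.9e-11). Bmp6 was counted once in these cells.

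The Shh+ cells were also set against the other cells of the posterior zone. Shh is itself in the posterior list, so that these sets are not matched on the AP axis by an independent measure. They were not matched on the PD axis either. All 4 ligands tested were called, where 27.3% of 12576 genes were. Bmp4 was at 337 ± 53.9 CPM against 86.1 ± 6.57 CPM (log2 difference 1.96, SE 0.06, adjusted p = 3.7e-18), Bmp2 higher by 1.58 (SE 0.13, adjusted p = 2.0e-10), Bmp7 by 1.13 (SE 0.07, adjusted p = 7.0e-13) and Bmp5 by 1.06 (SE 0.14, adjusted p = 1.2e-06). Bmp7, lower posteriorly as a whole, was thus higher in the Shh+ cells of the posterior zone, at 37.8 ± 7.49 CPM against 17.6 ± 2.06 CPM. Grem1 went the other way, at 4.92 ± 3.58 CPM in Shh+ posterior cells and 25.2 ± 17.5 CPM in the other posterior cells (log2 difference −2.32, SE 0.17, adjusted p = 5.0e-11, lower in 7 of 7 libraries).

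Cells with UMIs of both Hoxa13 and Hoxd13, transcription factors of the prospective hand plate, had the highest Bmp5 among the gates. Bmp5 ranged from 3.86 to 16.1 CPM in these 690 cells (8 libraries), above the 1.99 to 3.74 CPM of other mesenchyme in every one, with a log2 difference of 1.72 (SE 0.13, adjusted p = 6.0e-13), in a comparison that called 40.1% of genes and all 4 ligands tested. Bmp4 was at 178 ± 56.0 against 72.1 ± 7.78 CPM (log2 difference 1.25, SE 0.08, adjusted p = 1.1e-14). Bmp2 and Bmp7 were higher by 1.29 (SE 0.16, adjusted p = 4.1e-08) and 0.44 (SE 0.07, adjusted p = 1.0e-05), and Bmp6 had no UMI.

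The chondrogenic cells, with UMIs of both Sox9, the master factor of cartilage, and Col2a1, a cartilage collagen, were lower in the 4 more abundant ligands. In 8343 such cells Bmp2 was at 1.52 ± 0.95 CPM against 4.74 ± 2.44 CPM in other mesenchyme, with a log2 difference of −1.72 (SE 0.09, adjusted p = 6.8e-11), and Bmp4 was at 48.6 ± 11.1 against 81.6 ± 10.4 CPM, with −0.85 (SE 0.06, adjusted p = 8.2e-10). Both were lower in 9 of 9 libraries, as was Bmp5 (−1.09, SE 0.09, adjusted p = 1.3e-08). This comparison called 63.3% of genes. Bmp7 was lower by −0.42 (SE 0.05, adjusted p = 6.0e-07). Bmp6 had 83 UMIs in these cells and 120 UMIs in the others, and its level was higher in 8 of 9 libraries.

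Bmp6 was concentrated in cells with Pax1, a paired-box factor of the anterior-proximal bud. It was at 1.39 ± 0.93 CPM in 2119 Pax1+ cells and at 0.116 ± 0.049 CPM elsewhere, from 89 UMIs in these cells and 114 UMIs in the rest of the placed mesenchyme. The level was higher in 9 of 9 libraries with no overlap. The fit of Pax1+ cells, which called 26.8% of genes, placed them higher in Bmp7 (0.38, SE 0.05, adjusted p = 7.1e-06) and lower in Bmp5 (−0.96, SE 0.14, adjusted p = 2.2e-05). Neither Bmp4 (0.04, 95% interval −0.14 to 0.22, adjusted p = 0.82) nor Bmp2 (−0.23, 95% interval −0.46 to −0.0041, adjusted p = 0.16) passed the test. These intervals rest on the normal distribution and are narrower than the test implies. Without E1C5Δ/Δ replicate 3, the Bmp4 difference was 0.16 (adjusted p = 0.012).

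The 13702 peripheral cells with Asb4 and Lhx2 were higher in Bmp7 by 0.41 (SE 0.03, adjusted p = 1.4e-09, 9 of 9 libraries) and in Bmp2 by 0.40 (SE 0.08, adjusted p = 3.5e-04), where 44.8% of genes were called. Bmp6 had 58 UMIs in them and 145 UMIs in the other cells, with a lower level in 9 of 9 libraries. The differences of Bmp4 (0.12, adjusted p = 0.023) and Bmp5 (0.20, adjusted p = 0.041) were small, each was higher in 7 of 9 libraries, and both calls were lost by DESeq2 (adjusted p = 0.21 and 0.054). When single libraries were omitted, the call of Bmp4 was lost in 3 of 9 fits (without Wt replicate 2, E1C8Δ/Δ replicate 2 or E1C5Δ/Δ replicate 1, log2 differences 0.09 to 0.16 over the 9) and that of Bmp5 in 7 of 9 (0.14 to 0.25), all but those without E1C8Δ/Δ replicate 3 or E1C5Δ/Δ replicate 3.

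**Figure D3:**
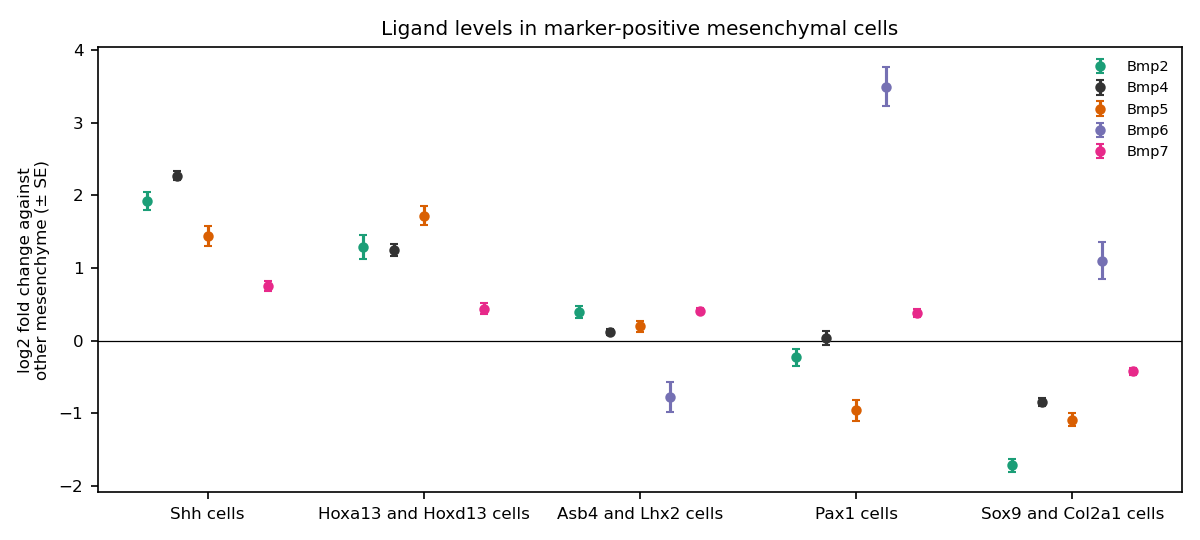
Log2 fold change of each ligand (vertical axis, bars ± SE of the edgeR fit) in cells of each marker gate (horizontal axis) against the other placed mesenchyme. Shh cells stand highest for Bmp4 (2.27) and Bmp2 (1.92), and Hoxa13 and Hoxd13 cells for Bmp5 (1.72). Sox9 and Col2a1 cells lie below 0 for Bmp2, Bmp4, Bmp5 and Bmp7. Bmp6 is shown only where it passed the filter on low counts. Its fitted value on few UMIs is a description, and its bar is no test of a difference.

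Levels summed over a group do not tell how many of its cells carried a transcript, so cells in which a ligand was detected (1 UMI or more) were counted after thinning each to 10000 UMIs. Their share of mesenchyme was 33.6% to 42.0% for Bmp4 (median 36.5%, and 58.6% unthinned), 16.5% to 22.3% for Bmp7 (median 18.6%, and 44.3% unthinned), 1.18% to 5.45% for Bmp2 (median 2.88%, and 7.89% unthinned), and 1.60% to 4.58% for Bmp5 (median 2.51%, and 8.11% unthinned). The median share for Bmp6 was 0.176% (0.511% unthinned). In erythroid cells, set beside them for free RNA, the medians over 7 libraries were 3.13% for Bmp4, 1.49% for Bmp7, 1.49% for Bmp2 and 0% for Bmp5. Median UMIs per cell before thinning lay between 16019.5 and 47043 in mesenchyme and between 18132 and 39408 in the erythroid cells of these 7. For Bmp2 the erythroid range, 0% to 3.54%, overlapped the mesenchymal one, so that these shares do not separate mesenchymal from erythroid Bmp2. The part of free RNA in either was not tested.

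Bmp4 was widespread among Shh+ cells, with 74.7% to 95.8% of them positive at this depth (median 84.3%), against 41.9% to 82.6% of cells with Hoxa13 and Hoxd13 (median 54.9%). Bmp2 was found in 5.88% to 19.3% of Shh+ cells (median 10.1%). In non-ridge ectoderm 25.8% to 40.7% of cells had Bmp7 and 12.5% to 22.0% had Bmp4 (median 18.0%). In muscle progenitors 6.0% to 16.6% had Bmp4 and 0% to 5.65% had Bmp5.

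Ligands were found in the same mesenchymal cell more often than the product of their shares for some pairs. Bmp2 and Bmp4 were detected together in 563 thinned cells, with a ratio of observed to product of 1.19 to 1.78 over libraries (median 1.46, above 1 in 9 of 9). In cells with Bmp2, 49.3% to 60.0% also had Bmp4, against 33.3% to 41.5% of cells without Bmp2. Bmp4 and Bmp5 had a median ratio of 1.40 (0.846 to 1.80, above 1 in 8 of 9 libraries, 440 cells), and Bmp4 and Bmp7 a ratio close to 1, with a median of 1.08 (0.972 to 1.15, above 1 in 7 of 9, 2564 cells). Cells of a library share their source, so that these ratios are given as a description.

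The genes most like each ligand were sought by Pearson's r of log2(CPM + 1) over 14 cell groups (Wt means), among 10344 genes. The groups were the 9 mesenchymal fields, non-ridge ectoderm, muscle progenitors, endothelium, erythroid and myeloid cells, without the ridge. Bmp4 was followed most closely by Rspo3, which encodes a WNT-enhancing secreted protein, with r of 0.97, and by Tril (0.97) and Fndc3c1 (0.95). For Bmp5 these were Cited1 (0.91), a transcriptional co-regulator, with Stxbp6 (0.91) and Rasl11a (0.91), for Bmp6 the homeobox gene Hoxc8 (0.95) with E330013P04Rik (0.94) and Emx2os (0.93), and for Bmp7 Efs (0.97), Kdm3a (0.97) and Trim59 (0.96). Over these groups, where it reached at most 9.95 CPM, Bmp2 had no close counterpart, with Fbxo8 at 0.69, Cenpw at 0.68 and Depdc1b at 0.65. The 14 groups share libraries, and r is given as a description.

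Whether ligand levels differed between genotypes was tested in 8 cell groups (mesenchyme, its 4 outer zones, non-ridge ectoderm, muscle progenitors and endothelium). No ligand was called in any of the 90 tests of the mutants together, E1C8Δ/Δ or E1C5Δ/Δ against Wt by edgeR's quasi-likelihood test (lowest adjusted p 0.063). DESeq2 called 5 of the same 90, all of them Bmp2 or Bmp4. In mesenchyme DESeq2 called 904 genes in the mutants together, against 327 by edgeR. Its shares of all genes in the other groups and contrasts are not given here. By edgeR, 2.02% of 16170 genes were called in mesenchyme in the mutants together, 8.98% in E1C8Δ/Δ and 1.45% in E1C5Δ/Δ. Over all these groups and contrasts the edgeR share lay between 0% and 9.76%.

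The nearest to a genotype difference in mesenchyme were lower levels of Bmp2 and Bmp4. Bmp4 was at 81.8, 74.3 and 90.3 CPM in the Wt libraries, at 71.3, 76.6 and 72.3 CPM in E1C8Δ/Δ and at 64.4, 65.1 and 70.5 CPM in E1C5Δ/Δ. All E1C5Δ/Δ values lay below all Wt values, and the E1C8Δ/Δ values overlapped Wt. Bmp2 was at 4.87, 3.17 and 8.27 CPM in Wt, at 3.44, 4.27 and 3.90 CPM in E1C8Δ/Δ and at 2.49, 1.96 and 3.07 CPM in E1C5Δ/Δ, with the same pattern of overlap. Of all genes, 10.3% lay lower in E1C5Δ/Δ without overlap. In the mutants together, the log2 fold change was −0.21 for Bmp4 (95% interval −0.35 to −0.08, adjusted p = 0.14) and −0.73 for Bmp2 (95% interval −1.19 to −0.28, adjusted p = 0.12), and for Bmp2 in E1C5Δ/Δ alone −1.02 (SE 0.27, adjusted p = 0.11). By DESeq2, Bmp2 was called in the mutants together (−0.75, adjusted p = 0.023) and in E1C5Δ/Δ (−1.03, adjusted p = 0.0052), and by edgeR in E1C5Δ/Δ without Wt replicate 2 (−1.28, adjusted p = 0.034) or without a filter on low counts (adjusted p = 0.037). Without Wt replicate 3, which had the highest Bmp2 level, the changes were −0.34 in the mutants together (adjusted p = 0.34) and −0.62 in E1C5Δ/Δ (adjusted p = 0.28). With sex as a covariate they were −0.85 (adjusted p = 0.38) and −1.14 (adjusted p = 0.34). The shares of cells with a ligand were not compared between genotypes, so that a lower summed level was not split into fewer expressing cells and fewer transcripts per cell.

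Bmp5, Bmp6 and Bmp7 overlapped between Wt and each mutant in mesenchyme. Bmp7 was at 23.3, 20.7 and 29.4 CPM in Wt, 26.1, 22.9 and 22.5 CPM in E1C8Δ/Δ and 19.4, 20.8 and 27.6 CPM in E1C5Δ/Δ (log2 fold change in the mutants together −0.06, 95% interval −0.27 to 0.16). Bmp5 had means of 2.74 ± 0.53, 3.30 ± 0.66 and 2.87 ± 0.93 CPM in Wt, E1C8Δ/Δ and E1C5Δ/Δ (log2 fold change 0.14, 95% interval −0.23 to 0.51). For Bmp6, at 0.191 ± 0.092, 0.288 ± 0.179 and 0.133 ± 0.049 CPM, the interval of −1.10 to 0.49 was too wide to say more. Between E1C8Δ/Δ and E1C5Δ/Δ, no ligand was called in 30 tests by edgeR (lowest adjusted p = 0.11), and DESeq2 called none. No share of all genes is given for this contrast, so that these counts have no background beside them.

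In muscle progenitors 2 ligands came close to the threshold. Bmp4 was at 11.5, 10.4 and 11.3 CPM in Wt and at 22.5, 17.3 and 15.7 CPM in E1C8Δ/Δ, with no overlap, as for 13.4% of genes (log2 fold change 0.66, SE 0.19, adjusted p = 0.063, where 3.07% of genes were called). It was 0.45 (adjusted p = 0.35) once sex was a covariate, and 0.64 with a call (adjusted p = 0.029) without a filter on low counts. The 5 mesenchymal markers in these cells were at 10.5%, 12.4% and 9.13% of their mesenchymal level in Wt and at 16.2%, 12.9% and 11.6% in E1C8Δ/Δ, and their part in the Bmp4 values was not tested. Bmp7 was at 8.67, 6.69 and 7.76 CPM in Wt and at 3.79, 4.63 and 5.15 CPM in E1C5Δ/Δ, again with no overlap, as for 7.65% of genes (log2 fold change −0.74, SE 0.20, adjusted p = 0.095, where 1.36% were called). The value given sex as a covariate was −0.78 (adjusted p = 0.54).

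**Figure D4:**
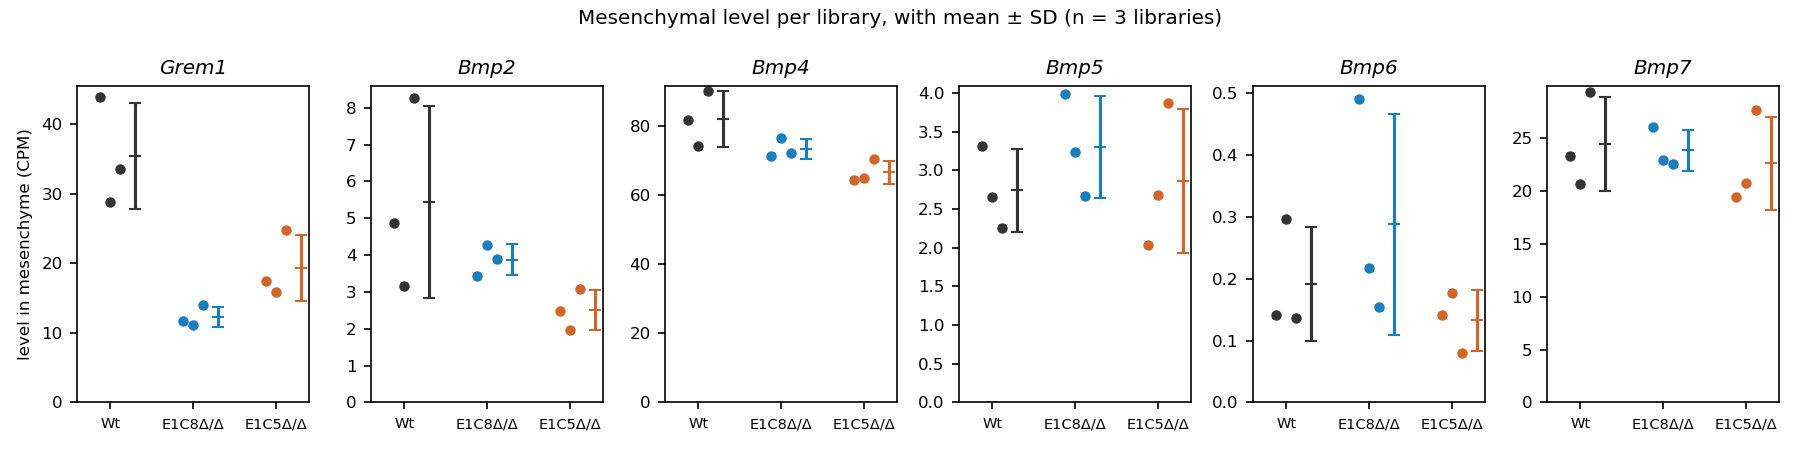
Mesenchymal level (CPM, vertical axis) of Grem1 and the 5 ligands in each library by genotype, with bars at the mean ± SD of 3 libraries. Grem1 is lower in all 6 mutant libraries, and Bmp2 and Bmp4 in E1C5Δ/Δ lie below all Wt libraries, whereas Bmp5, Bmp6 and Bmp7 overlap.

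The distribution of Bmp4 along the proximal-distal axis was compared between genotypes in zones whose own size differed. The proximal zone held 28.5%, 37.3% and 32.8% of the UMIs of placed mesenchyme in the Wt libraries and 37.6% to 46.8% in the 6 mutant libraries, without overlap, and the distal zone 32.0% to 42.4% in Wt and 22.9% to 33.9% in the mutants. The part of this shift in the differences between zones was not tested, nor was that of genotype changes in the position genes themselves. In the proximal zone Bmp4 was at 77.1, 75.6 and 106 CPM in Wt, 65.0, 77.5 and 73.2 CPM in E1C8Δ/Δ and 52.7, 60.7 and 50.1 CPM in E1C5Δ/Δ, while in the distal zone it was at 87.0, 79.0 and 96.9 CPM, 82.7, 88.4 and 87.3 CPM, and 90.9, 73.3 and 92.1 CPM. The proximal values of E1C5Δ/Δ all lay below those of Wt, as for 9.42% of genes, and the distal values overlapped. The log2 fold change in the proximal zone of E1C5Δ/Δ was −0.59 (SE 0.14, adjusted p = 0.087), where 0.548% of genes were called. It was −0.60 by DESeq2 (adjusted p = 0.0073), −0.58 without a filter on low counts (adjusted p = 0.011) and −0.46 with sex as a covariate (adjusted p = 0.52). The log2 ratio of distal to proximal Bmp4 was 0.17, 0.06 and −0.12 in Wt, 0.35, 0.19 and 0.25 in E1C8Δ/Δ and 0.79, 0.27 and 0.88 in E1C5Δ/Δ. All 6 mutant ratios lay above those of Wt, as for 2.06% of genes.

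The interaction term, the distal minus proximal difference of a mutant less that of Wt, was 0.61 for Bmp4 in E1C5Δ/Δ (SE 0.10, adjusted p = 0.0014), where 2.67% of 15030 genes were called, and 0.39 in the mutants together (SE 0.09, adjusted p = 0.024), where 2.16% were called. In E1C8Δ/Δ alone, where 1.4% were called, it was 0.17 (95% interval −0.05 to 0.38, adjusted p = 0.57). With sex as a covariate the terms were 0.41 (adjusted p = 0.12) in E1C5Δ/Δ and 0.21 (adjusted p = 0.54) in the mutants together. The call for the mutants together was also lost without Wt replicate 2, Wt replicate 3, E1C8Δ/Δ replicate 1 or E1C8Δ/Δ replicate 3, with terms of 0.33 to 0.48 when each library was omitted in turn.

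Bmp7 went the opposite way in E1C5Δ/Δ. Its log2 ratio of distal to proximal was 0.18, 0.21 and 0.52 in Wt, 0.02, 0.12 and 0.32 in E1C8Δ/Δ and −0.24, −0.17 and 0.01 in E1C5Δ/Δ, so that the E1C5Δ/Δ ratios all lay below those of Wt, as for 8.9% of genes. The interaction term was −0.38 (SE 0.09, adjusted p = 0.020) in E1C5Δ/Δ and −0.23 (SE 0.08, adjusted p = 0.18) in the mutants together. It lost its call in E1C5Δ/Δ without Wt replicate 3 (−0.32, adjusted p = 0.056), without E1C5Δ/Δ replicate 1 (−0.31, adjusted p = 0.085) and with sex as a covariate (−0.33, adjusted p = 0.32). Along the anterior-posterior axis no ligand was called for the mutants together or for either mutant, where 0.429%, 0.347% and 0.572% of genes were called. For Bmp2 the PD term of the mutants together was −0.16 (95% interval −0.53 to 0.21).

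**Figure D5:**
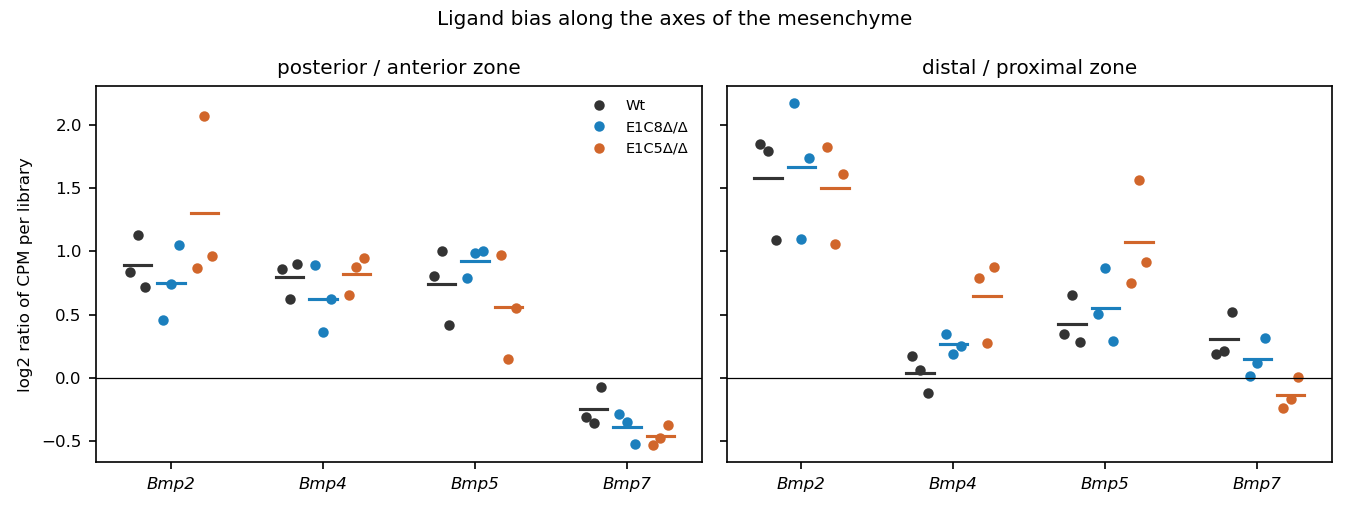
Log2 ratio of posterior to anterior and of distal to proximal CPM (vertical axis) for Bmp2, Bmp4, Bmp5 and Bmp7 in each library by genotype, with lines at the group means. The distal to proximal ratio of Bmp4 is 0.27 to 0.88 in E1C5Δ/Δ and −0.12 to 0.17 in Wt, and that of Bmp7 is −0.24 to 0.01 in E1C5Δ/Δ and 0.18 to 0.52 in Wt.

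The other genes of the pathway were taken from a list of 49 genes. Receptor and SMAD genes differed widely in level in Wt mesenchyme, with Acvr2b, a type II receptor, at 97.7 CPM, the type I receptor Bmpr1a at 83.5 CPM, the type II receptor Bmpr2 at 54.7 CPM and Smad4 at 112 CPM, while Bmpr1b, the type I receptor of cartilage precursors, was at 8.45 CPM and Smad9 at 0.475 CPM. Among targets, Id1 was at 295 CPM, Id3 at 225 CPM, Id2 at 192 CPM and Msx1 at 127 CPM.

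Along the anterior-posterior axis the 6 targets moved against Bmp2, Bmp4 and Bmp5. All 6 were lower in the posterior zone, among them Msx1 by −1.07 and Msx2 by −1.09, both homeobox genes, and Id4 by −0.58 on the log2 scale. Of the 40 listed genes tested on this axis, 6 were higher and 21 lower posteriorly, with a median of −0.13 against 0.014 over all genes, of which 27.2% were higher and 20.2% lower. Of 9 antagonists, Sostdc1 (1.76), Grem1 (0.75) and Smoc1 (0.46) were higher posteriorly and Bmper (−1.77), Nog (−1.25) and Twsg1 (−0.13) lower. Other ligands of the family were lower posteriorly in 4 of 5 cases, with Gdf6, a joint-associated growth factor, at −3.00 and Gdf5 at −1.16.

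Along the proximal-distal axis 12 of 40 listed genes were higher and 20 lower distally, where 36.9% of all genes were higher and 31.1% lower. Grem1 (2.61) and Nog (1.22) were the antagonists higher distally, while Sostdc1 (−2.68), Bmper (−1.29), Fst (−1.28) and Fstl1 (−0.20) were lower. Msx1 was higher distally by 1.71 and the pseudoreceptor Bambi by 1.01. The other ligands were lower distally in 5 of 5 cases, as was Bmpr1b (−2.06).

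In the genotype fits, listed genes were called among targets, antagonists, co-receptors, SMADs and other ligands. In E1C8Δ/Δ mesenchyme, Bambi (0.65), Id3 (0.73), Msx1 (0.52) and Msx2 (0.87) were higher, and Grem1, Smoc1 (−0.87) and Twsg1 (−0.40) lower, of 41 genes tested, where 3.45% of all genes were higher and 5.53% lower. With sex as a covariate 5 of these 7 calls remained, and those of Msx1 (adjusted p = 0.082) and Twsg1 (0.090) were lost. In E1C5Δ/Δ mesenchyme none was higher, and Grem1, Sostdc1 (−1.11) and Rgmb (−0.61), a BMP co-receptor, were lower, where 0.371% of all genes were higher and 1.08% lower, and none of the 3 calls remained with sex as a covariate.

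In the distal zone of the mutants together, 5 of 38 genes were higher, namely Msx2 (1.02), Msx1 (0.69), Id3 (0.67), Id2 (0.56) and Bambi (0.45), and 6 were lower, Bmp3 (−2.09), Grem1 (−1.36), Smoc1 (−1.20), Rgmb (−0.75), Rgma (−0.50) and Twsg1 (−0.33), where 2.57% of all genes were called, 0.724% higher and 1.84% lower. With sex as a covariate the calls of Msx1, Msx2, Grem1, Smoc1 and Rgmb remained, 5 of the 11. Those 5 and Id3 also kept their call without any single library, whereas that of Twsg1 was lost in 8 of 9 such fits, those of Bambi and Rgma in 7 and those of Id2 and Bmp3 in 4. None of 40 listed genes was called in the proximal zone, where 0.494% of all genes were.

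The interaction term on the proximal-distal axis was called higher for 6 of 6 targets in the mutants together, with a median of 0.59, where 0.672% of all genes were called higher and 1.48% lower. Of the 41 listed genes tested, 7 were higher and 5 lower. With sex as a covariate the calls of 2 of the 6 targets remained, Id2 (0.63, adjusted p = 3.5e-04) and Id3 (0.38, adjusted p = 0.027), with 4 of the 12 listed genes in all, while the calls over all genes fell from 324 to 83. Of the 5 ligands, Bmp4 was the one called in the fit without sex, at 0.39, and its call was lost with sex as a covariate.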

How the data were processed

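The authors deposited raw counts, the UMIs of 32289 features per barcode of each of 9 10x 3′ libraries (Cell Ranger 6.0.1 on mm10, with Seurat 4.3.0.1 for later steps, per the submitters' processing notes). Of 133086 barcodes, 52432 passed the study's filters on genes (over 2500), UMIs (under 200000) and mitochondrial share (under 10%). Doublets were called per library by how many simulated doublets neighboured each cell, at an assumed 0.8% per 1000 barcodes. Lineages were gated on detected markers, with at least 3 of 5 for mesenchyme and at least 30% of its library's median marker UMIs, 5 of 10 for ectoderm, 3 of 5 for muscle, 5 of 9 for endothelium and 4 of 6 for erythroid cells, thresholds set after the marker distributions had been seen. Cells with markers of several lineages (1176) or of none (2202) were left out. The 2000 mesenchymal cells under 10000 UMIs were not placed.

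UMIs were summed per library and group and tested with edgeR 4.0.16 (quasi-likelihood, trimmed-mean scaling, filterByExpr, Benjamini-Hochberg at 0.05), without the 1809 features on X or Y and 4 transgene features, and with library as a block between groups of cells. DESeq2 1.42.0 served as an alternative, and fits were tested on simulated data. Members and lists were chosen with earlier results of these data known. Named genes were the ligands, Grem1, the pathway list, gate markers and, for each ligand, the 3 genes of highest r. Alternatives covered scaling, filters, thinning, cuts, a replicate block, sex and each library left out; the fits of ridge and marker gates, and groups of at least 10 cells, were chosen after seeing the data. Samples were grouped by the labels' genotype, and each library was made from 1 pair of limb buds, per the study's methods. Same-numbered libraries deviated with correlations of −0.302 to 0.154, so that numbers did not pair them. R 4.3.3, limma 3.58.1, Python 3.11.15, numpy 2.4.6 and scipy 1.17.1 were used.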

Additional observations from a re-analysis of the deposited data

Results flagged for a closer look

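The distal minus proximal difference of Bmp4 in mesenchyme differed between genotypes by the interaction term of edgeR's quasi-likelihood fit, at 0.39 on the log2 scale for the mutants together (adjusted p = 0.024) and 0.61 for E1C5Δ/Δ (adjusted p = 0.0014), with the log2 ratio of 6 of 6 mutant libraries above those of all 3 Wt libraries, as for 2.06% of genes. That of Bmp7 differed by −0.38 for E1C5Δ/Δ (adjusted p = 0.020), with 3 of 3 libraries below the lowest Wt library, as for 8.9% of genes. All 3 terms missed the threshold with sex as a covariate, at 0.21, 0.41 and −0.33.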

How the results depend on the processing

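The posterior to anterior and distal to proximal differences of Bmp2, Bmp4 and Bmp5 kept their direction and call under the alternatives tried, except that of Bmp4 between the distal and proximal zone, 0.082 in Wt libraries only. The distal difference of Bmp7 missed the threshold with library totals (0.10) and with narrower outer zones (0.13), and ranged from 0.11 to 0.18 with libraries left out. Between non-ridge ectoderm and mesenchyme, Bmp2 passed at 0.85 with at least 50 cells (−0.27 to 0.83 with libraries left out), and Bmp5 at −0.70 with more than 1500 genes and −1.65 in Wt libraries only (−0.80 to −0.35 with libraries left out). Erythroid Bmp2 reversed to −0.93 with library totals and passed at 0.60 without a filter, 0.58 with more than 1500 genes and 1.18 in Wt libraries only (0.21 to 0.82 with libraries left out). Between genotypes, mesenchymal Bmp2 passed with DESeq2 (−0.75). The Bmp4 interaction fell to 0.21 with sex as a covariate (0.33 to 0.48 with libraries left out), and the Grem1 change to −1.16 with an adjusted p of 0.091. The count of genes called in mesenchyme, 327, was 98 with a replicate block, 7 with sex, 904 with DESeq2 and 95 to 728 with libraries left out (728 without E1C5Δ/Δ replicate 3). The count for the proximal-distal interaction, 324, was 83 with sex, 176 with DESeq2, 687 without a filter and 161 to 356 with libraries left out. With the replicate block, which follows numbers that do not pair the libraries, Bmp2 was at −0.69, Bmp4 at −0.21 and the Bmp4 interaction at 0.39, the Bmp7 interaction of the mutants together passed at −0.30, and 1 of 9 libraries correlated best with its own number. Thinning to 5000 UMIs lowered the mean shares of mesenchymal cells to 24.2% for Bmp4, 10.2% for Bmp7, 1.67% for Bmp2, 1.22% for Bmp5 and 0.09% for Bmp6. The causes of these changes were not tested. Depth limits what can be said of Bmp6 (206 mesenchymal UMIs) and of the 68 ridge cells.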
